A study of Mus musculus with 7 samples.

Results

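The cytosolic ribosomal protein genes encode the protein parts of the ribosome that translates nuclear messages. They were taken from the array by name. A gene was a member where the gene name in the scanner file followed the Rpl or Rps pattern with a number and at most a letter suffix, or was Rplp0, Rplp1, Rplp2 or Rpsa. Rpl3 and its muscle copy Rpl3l were left out by that rule. The rule gave 82 genes measured by 178 probes, and each gene is shown by whichever of its probes had the highest mean on the 7 arrays. Of the 82 genes, 80 passed the filter on dim probes and were tested among 22839 genes in all. The other two were Rpl10l, not well above background on any array, and Rpl37, well above background on 1 of 7 arrays.

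Cytosolic ribosomes join a small and a large subunit, each built on ribosomal RNA in the nucleolus from proteins named Rps and Rpl. The proteins are needed in about equal numbers in each ribosome, and excess copies are degraded. Their messages begin with a run of pyrimidines, the TOP motif, through which the mTOR kinase pathway and Larp1 control their translation and stability. In heart muscle, ribosome output is known to rise during hypertrophic growth, and several of these genes serve as reference genes in expression assays.

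Messenger RNA was measured on 7 one-colour 60-base oligonucleotide arrays from hearts of adult female mice, 4 Mutant samples (Mutant_175, Mutant_182, Mutant_187 and Mutant_188) and 3 Wild Type samples (Wild Type_181, Wild Type_183 and Wild Type_189). Brg1 (gene Smarca4), an ATPase of the SWI/SNF chromatin remodelling complex, was removed in Mutant mice with tamoxifen by an MHC promoter-driven Cre-ERT on a Brm null background, giving a Brg1 and Brm double knockout. Mutant samples are marked Tg and Wild Type samples NTg, and both groups received tamoxifen. Whether Wild Type mice carried Brm is not stated by the labels. The labels name cardiomyocytes, but the source is heart, the RNA kit is one for whole tissue and no step of cell isolation is described. The design text names more samples than these 7, and the others were not analysed here. Nothing beyond the sample numbers says that the samples came from separate animals, so p-values reflect spread among these samples alone, which may be technical. In whole tissue, fewer cells of a type and less RNA per cell cannot be told apart.

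Between 58.1% and 63.6% of spots were well above background, and 0 spots were saturated. Mutant arrays lie in the other row of the slide from Wild Type arrays, so row and group cannot be told apart. Smarca4 had a signal, divided by the array's 75th percentile, of 5.87, 10.3, 14.9 and 8.25 in the Mutant samples, against 34.7, 32.8 and 34.2 in the Wild Type samples, each in the order just named. Its log2 difference was -1.87 (SE 0.29, adjusted p = 0.00208, limma). The labels do not name the deleted exons, and a probe outside them checks nothing about the deletion. All relative signals below use this scale and this order of samples, and all differences are log2, Mutant minus Wild Type, with p-values adjusted over all genes by Benjamini-Hochberg.

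Relative to the array's 75th percentile, the ribosomal protein genes stood close to their Wild Type level in Mutant hearts and those called were lower, while set against spike-in RNA those called were higher. At an adjusted p under 0.05 in limma, 15 of the 80 tested genes fell, 0 rose and 65 were not called. Over all genes, 25.8% were called lower and 16.4% higher, so the share of members called lower, 18.75%, was below that of all genes. Without adjustment, 22 members had p under 0.05 with a lower level and 0 with a higher one, against 7123 and 4570 of all 22839 genes. Of the 80 differences, 66 were negative and 14 positive, and the highest was 0.43 for the dim Rpl39l. Over all 22839 genes, 13338 were negative and 9501 positive. The median was -0.19, against -0.12 over all genes.

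The members were also close to each other. The interquartile range of their differences was 0.289, against 0.856 over all genes tested. This was not particular to the members, as the ribosomal chaperones and late assembly factors described below had 0.288. It was wider in other lists below, at 0.447 for mTOR pathway genes, 0.461 for mitochondrial ribosomal protein genes, 0.485 for translation factors and 0.606 for nucleolar genes. The 95% confidence interval lay wholly within a 2-fold change for 77 of 80 members (96.25%), against 56.9% of all genes. It lay within a 1.5-fold change for 49 members. The share within 2-fold was 95.2% for the translation factors and 92.9% for the chaperones and late assembly factors. It was 83.3% for both the mTOR and the nucleolar genes and 50.6% for the mitochondrial set. Spread within groups was also lower for members (median residual SD 0.154, against 0.230 over all genes), which narrows intervals. All 4 Mutant arrays lay below all 3 Wild Type arrays for 33 of 80 members and above them for 1, Rpl10. Over all 22839 genes the arrays were apart in this way for 7228 below (31.6%) and 4482 above (19.6%). The members' share apart below was therefore higher than that of all genes, unlike their share called lower. The plot of differences by gene shows these intervals.

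**Figure D1:**
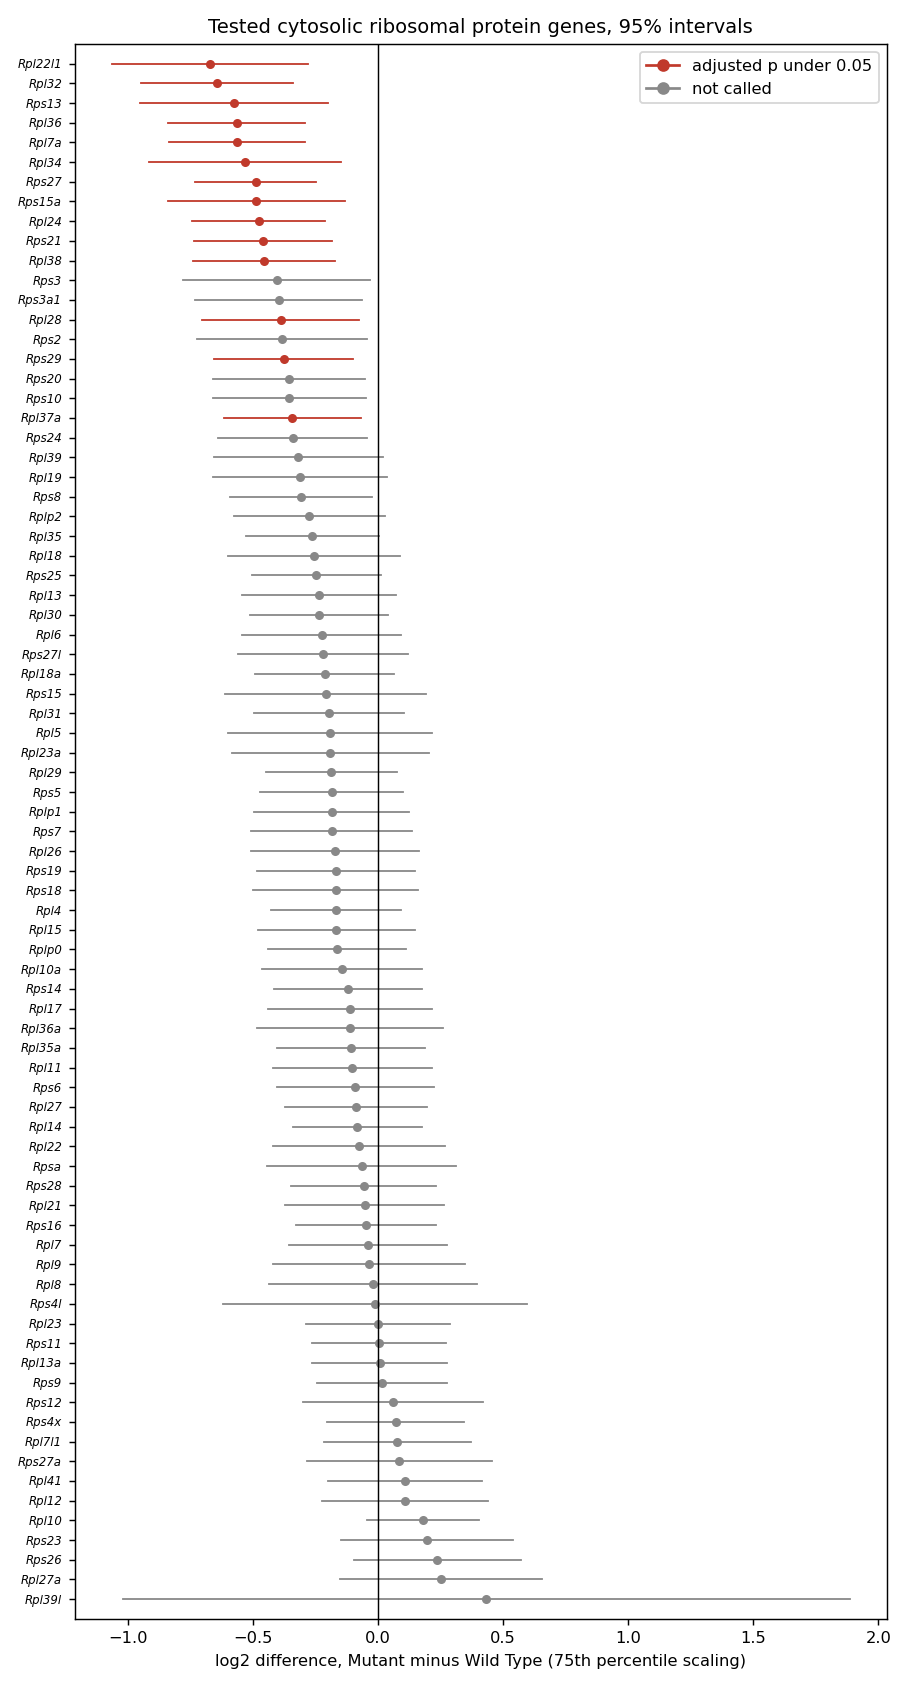
Log2 difference, Mutant minus Wild Type, for 79 tested genes after 75th percentile scaling; points are estimates, lines are 95% confidence intervals from limma, and red marks an adjusted p under 0.05. The 14 red genes drawn all lie left of 0, from -0.67 for Rpl22l1 to -0.34 for Rpl37a, and 65 of the 79 points are negative.

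The start regions of 10 members are shown because the pyrimidine run at the start of the message is the feature these genes are known to share. Each is the 25 bases before and the 25 bases from the annotated start, from RefSeq on GRCm38.p6, written 5′ to 3′ on the gene's strand. Runs searched for were a C followed by 4 or more letters that are each C or T, on the transcribed strand only. Capitals mark the longest such run with its first C within 25 bases of the start, and shorter runs in a window stay in lower case.

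Rpl7a, chr2:26910782-26910831, plus strand: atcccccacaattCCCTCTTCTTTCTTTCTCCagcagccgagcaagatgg
Rps27, chr3:90213624-90213673, minus strand: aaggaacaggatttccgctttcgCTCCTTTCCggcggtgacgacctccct
Rpl38, chr11:114668555-114668604, plus strand: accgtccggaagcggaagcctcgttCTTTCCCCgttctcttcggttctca
Rps21, chr2:180257354-180257403, plus strand: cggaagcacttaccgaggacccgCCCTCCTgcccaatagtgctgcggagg
Rpl35, chr2:39005107-39005156, minus strand: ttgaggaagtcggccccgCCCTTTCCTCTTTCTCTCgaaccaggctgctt
Rps18, chr17:33955641-33955690, minus strand: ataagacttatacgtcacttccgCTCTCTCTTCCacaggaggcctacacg
Rplp2, chr7:141447626-141447675, plus strand: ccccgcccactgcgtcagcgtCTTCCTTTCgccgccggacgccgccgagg
Rpl15, chr14:18270962-18271011, minus strand: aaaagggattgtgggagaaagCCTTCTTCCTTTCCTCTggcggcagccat
Rps6, chr4:86857343-86857392, minus strand: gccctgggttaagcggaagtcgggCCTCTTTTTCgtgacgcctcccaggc
Rpl27a, chr7:109519170-109519219, plus strand: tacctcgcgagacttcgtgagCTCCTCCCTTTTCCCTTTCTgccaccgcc

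Of these, Rpl7a, Rps27, Rpl38 and Rps21 were called lower in Mutant hearts, and the others were not called. Rpl27a, at the high end of the members, carries a run of 20 pyrimidines, and Rpl7a, among the lowest, one of 19. Of 82 members, 62 matched a RefSeq start region. A gene with several annotated starts counted if any of them had a run. A run whose first C lay within 25 bases of the start was found in 52 of 62 (83.9%), against 58.0% of 27025 genes and 69.6% of 69 mitochondrial ribosomal protein genes. With the first C within 5 bases of the start, the shares were 41.9% of members, 18.6% of all genes and 20.3% of mitochondrial ribosomal protein genes. The run was found in 10 of the 11 matched members called lower and in 41 of 49 other tested members, and within 5 bases of the start in 7 of 11 (63.6%) and 19 of 49 (38.8%). These matches describe letters and were not tested against the differences.

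In the large subunit, 8 of 41 tested genes fell (19.5%) and 0 rose, with a median difference of -0.17. Over all genes 25.8% fell and 16.4% rose, so the share that fell was below that of all genes. Rpl32 had a relative signal of 130.4, 166, 163 and 171 in Mutant hearts, against 248, 255 and 232 in Wild Type hearts. Every Mutant array lay below every Wild Type array, and the difference was -0.64 (SE 0.13, adjusted p = 0.00648, limma). Rpl36 had 163, 179, 182.6 and 195 in Mutant hearts, against 263, 291 and 245 in Wild Type hearts, again without overlap, with a difference of -0.57 (SE 0.12, adjusted p = 0.0072, limma). Rpl7a had 133, 158, 143 and 163 in Mutant hearts, against 219, 230.4 and 211 in Wild Type hearts. It fell by 0.56 on the log2 scale (SE 0.12, adjusted p = 0.00696, limma), with the highest Mutant array below the lowest Wild Type array. The probes of these 3 genes lie at chr6:115755543-115755602, chr17:56753612-56753674 and chr2:26768759-26768818 of build mm9.

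Rpl38, whose loss in mouse disturbs the axial skeleton through translation of Hox messages, had 209.9, 236, 239 and 243 in Mutant hearts, against 305, 361 and 293 in Wild Type hearts. The groups did not overlap, and the difference was -0.46 (SE 0.12, adjusted p = 0.0197, limma). Rpl24, whose mutation in mouse gives the belly spot and tail phenotype, had 105, 117, 99.5 and 122 in Mutant hearts, against 150.3, 158 and 154 in Wild Type hearts, also without overlap. Its difference was -0.48 (SE 0.11, adjusted p = 0.013, limma). Rpl34 fell by 0.53 on the log2 scale (SE 0.16, adjusted p = 0.0346, limma). Rpl28 and Rpl37a, both outside the rule for named genes, lay just inside the threshold, at -0.39 (adjusted p = 0.0498) and -0.34 (adjusted p = 0.049, limma).

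Rpl5 and Rpl11 form the 5S particle that, when free, binds the p53 regulator Mdm2. Rpl5 had 56.1, 55.1, 80.1 and 79.7 in Mutant hearts, against 78.7, 73.4 and 76.8 in Wild Type hearts. Its Mutant arrays lay as a pair below and a pair above the Wild Type range, and its difference was -0.19 (95% interval -0.60 to 0.21, adjusted p = 0.403, limma). Rpl11 had 199, 218, 262 and 262 in Mutant hearts, against 258, 257 and 239 in Wild Type hearts. The groups overlapped, with a difference of -0.10 (95% interval -0.42 to 0.21, adjusted p = 0.571, limma).

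At the high end of the large subunit, Rpl10, which joins late in assembly and helps to form the peptidyl transferase centre, had 285, 299, 295 and 296 in Mutant hearts, against 260.0, 268 and 251 in Wild Type hearts. The lowest Mutant array lay above the highest Wild Type array. The difference was small and was not called, at 0.18 (95% interval -0.05 to 0.40, adjusted p = 0.173, limma). Rpl27a had 95.6, 105, 149 and 134 in Mutant hearts, against 97.5, 101 and 102 in Wild Type hearts, with a difference of 0.25 (95% interval -0.15 to 0.66, adjusted p = 0.276, limma). Mutant_182, Mutant_187 and Mutant_188 lay above all Wild Type arrays and Mutant_175 below them. Rpl41, which encodes a very short peptide, and Rpl12, a protein at the base of the stalk, both had a difference of 0.11 (adjusted p = 0.55 and 0.576, limma).

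In the small subunit, 6 of 31 tested genes fell (19.4%, against 25.8% of all genes) and 0 rose, with a median difference of -0.19. Rps13 had 67.4, 79.1, 98.1 and 91.0 in Mutant hearts, against 116, 141 and 117 in Wild Type hearts, without overlap. Its difference was -0.58 (SE 0.16, adjusted p = 0.0237, limma). Rps27 had 162, 176, 169.8 and 187.9 in Mutant hearts, against 249, 239.9 and 243 in Wild Type hearts. Both groups were tight and apart, and the difference was -0.49 (SE 0.10, adjusted p = 0.00782, limma). Rps21 had 93.8, 108, 101 and 117 in Mutant hearts, against 140.1, 153 and 139 in Wild Type hearts, a difference of -0.46 (SE 0.12, adjusted p = 0.0172, limma). Rps15a and Rps29, both outside the rule for named genes, also fell, at -0.49 (adjusted p = 0.0351) and -0.38 (adjusted p = 0.0361, limma).

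The Rps27 probe is placed by the file on chr9:114891517-114891576 while the gene lies on chromosome 3, and the Rps29 probe on chr2:172335003-172335062 while the gene lies on chromosome 12. Both values may therefore include signal from near-identical copies and are uncertain as to their source.

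Rps6, the small subunit protein phosphorylated by S6 kinase below mTOR, had 111, 134, 151 and 143 in Mutant hearts, against 138, 151 and 139 in Wild Type hearts. The groups overlapped, and the difference was -0.09 (95% interval -0.41 to 0.22, adjusted p = 0.615, limma). Rps19, mutated in human Diamond-Blackfan anaemia, had 136, 160.1, 173 and 182.4 in Mutant hearts, against 173, 196 and 178 in Wild Type hearts. It also overlapped, at -0.17 (95% interval -0.49 to 0.15, adjusted p = 0.345, limma). Rpsa, known also as the laminin receptor, had a difference of -0.07 (95% interval -0.44 to 0.31, adjusted p = 0.766, limma).

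Rps26, which lies at the mRNA exit channel and is carried by the chaperone Tsr2, had 96.5, 133, 123 and 133 in Mutant hearts, against 98.7, 107.2 and 101 in Wild Type hearts. Mutant_182, Mutant_187 and Mutant_188 lay above all Wild Type arrays and Mutant_175 below them, with a difference of 0.24 (95% interval -0.10 to 0.57, adjusted p = 0.218, limma). Without Mutant_175, Rps26 was called higher, at 0.34. Rps23, a decoding centre protein, had 106, 114, 141 and 145 in Mutant hearts, against 116, 104 and 109 in Wild Type hearts, with overlap, at 0.20 (95% interval -0.15 to 0.54, adjusted p = 0.316, limma). Rps27a, made as a fusion with ubiquitin, had a difference of 0.08 (adjusted p = 0.695, limma).

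The acidic stalk proteins, which recruit translation factors, gave 0 calls among 3 genes in limma, and 0 at an unadjusted p under 0.05. Rplp0 had 231, 244, 275 and 287 in Mutant hearts, against 279, 301 and 288 in Wild Type hearts, a difference of -0.16 (95% interval -0.44 to 0.11, adjusted p = 0.298, limma). Mutant_188 lay inside the Wild Type range and the other Mutant arrays below it. Rplp1 gave -0.19 (95% interval -0.50 to 0.12, adjusted p = 0.293) and Rplp2 -0.28 (95% interval -0.58 to 0.03, adjusted p = 0.124, limma).

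Rplp0, Rpl13a and Rps18 are used as reference genes. Rpl13a had 134, 156, 161 and 165 in Mutant hearts, against 158, 152 and 148 in Wild Type hearts, with a difference of 0.01 (95% interval -0.26 to 0.27, adjusted p = 0.973, limma). Rps18 had 300.2, 327, 371 and 415 in Mutant hearts, against 372, 426 and 386 in Wild Type hearts, at -0.17 (95% interval -0.50 to 0.16, adjusted p = 0.367, limma). All 3 intervals include 0 on this scale, and the levels by array are drawn for these and other members.

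**Figure D2:**
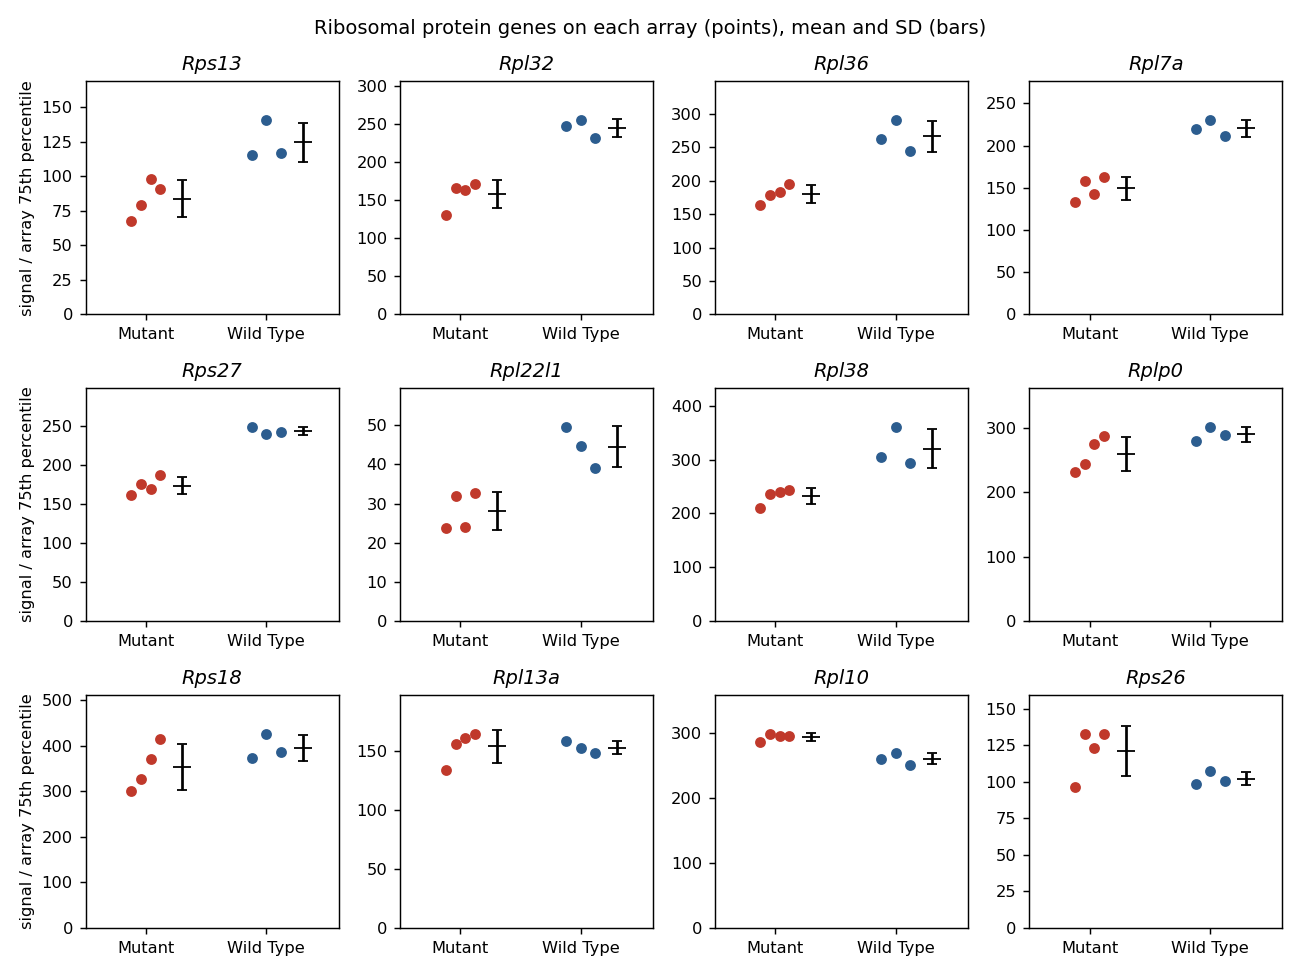
Signal divided by the array's 75th percentile for 12 members, each axis starting at 0, with Mutant arrays in red on the left and Wild Type arrays in blue on the right; points are arrays, drawn in the order of their numbers, and bars beside them are mean and SD (n = 4 and 3). Rps13, Rpl32, Rpl36, Rpl7a, Rps27, Rpl22l1 and Rpl38 have every Mutant array below every Wild Type array, Rpl10 has every Mutant array above, and Rplp0, Rps18, Rpl13a and Rps26 overlap.

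Second gene copies of ribosomal proteins can be expressed beside the main copy, and 5 of them were tested. Rpl22l1, which in mouse is held down by Rpl22 and can replace it, was the only one called. Its relative signal was 23.8, 31.8, 23.9 and 32.7 in Mutant hearts, against 49.6, 44.7 and 39.1 in Wild Type hearts, without overlap. Its difference was -0.67 (SE 0.17, adjusted p = 0.0154, limma); its probe lies at chr3:28706237-28706296 of mm9. Rpl22 itself had 40.1, 48.2, 45.4 and 57.8 in Mutant hearts, against 48.7, 47.3 and 54.5 in Wild Type hearts, with overlapping groups and a difference of -0.08 (adjusted p = 0.701, limma).

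The log2 ratio of Rpl22l1 to Rpl22 within each array was lower in Mutant than in Wild Type hearts by a difference of -0.60 (95% interval -0.99 to -0.21). This value does not depend on the scaling factor of an array. The exact two-sided permutation p was 0.0286, the smallest that 35 splits of the arrays can give, and 0.143 after adjustment over the 5 pairs compared. The pair difference was 0.27 for Rps27l over Rps27 (95% interval -0.01 to 0.55, exact permutation p = 0.114, adjusted 0.19) and 0.12 for Rpl7l1 over Rpl7 (exact permutation p = 0.0857, adjusted 0.19). It was 0.75 for Rpl39l over Rpl39 (exact permutation p = 0.314, adjusted 0.393) and -0.08 for Rps4l over Rps4x (exact permutation p = 0.743, adjusted 0.743). None of the 5 passed after adjustment, but a single pair at the smallest possible p could not have passed over 5 pairs. The adjusted p therefore cannot decide whether the ratio of Rpl22l1 to Rpl22 differed, and no conclusion is drawn from it.

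Rps27l, a p53-responsive copy of Rps27, had 45.4, 49.5, 37.9 and 55.1 in Mutant hearts, against 53.2, 54.9 and 54.6 in Wild Type hearts, at -0.22 (adjusted p = 0.256, limma). Rpl7l1 and Rps4l gave 0.08 (adjusted p = 0.652) and -0.01 (adjusted p = 0.973, limma). Rpl39l, known from testis, was near background, with 0.014, 0.105, 0.0594 and 0.0642 in Mutant hearts, against 0.045, 0.0346 and 0.0301 in Wild Type hearts. It was not well above background on Mutant_175, and its interval ran from -1.02 to 1.89.

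Rpl3 and its striated muscle copy Rpl3l, left out of the members by the rule, moved outside the range of the members. Rpl3l had 2.12, 2.07, 2.18 and 2.54 in Mutant hearts, against 36.8, 37.7 and 33.1 in Wild Type hearts, and a difference of -4.01 (adjusted p = 5.1e-06, limma). Rpl3 rose by 0.72 (SE 0.14, adjusted p = 0.00495, limma), while the highest difference of a member was 0.43.

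The Mutant arrays lay farther apart than the Wild Type arrays. Measured as deviation from the gene's Wild Type mean, the median over 80 members was -0.40, -0.18, -0.14 and -0.01 in the 4 Mutant arrays, against -0.02, 0.06 and -0.03 in the 3 Wild Type arrays. In Mutant_175, 79 of 80 members lay below their Wild Type mean, and in Mutant_188 it was 41 of 80. The medians over all genes were -0.10, -0.15, -0.17 and -0.09 in the Mutant arrays. Leaving out Mutant_175 changed the members' median difference to -0.11. The summed relative signal of the members was 11427 to 14676 in Mutant hearts, against 14770 to 15642 in Wild Type hearts.

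The direction of the members depended on the scaling. Each array was also set against the mean log2 signal of 7 E1A spike-in probes, which measure RNA added at labelling. Relative to the spike-in, the array's 75th percentile was higher in all 4 Mutant arrays than in any Wild Type array, and spike-in scaling therefore added 0.57 to the difference of every member. On that scale 18 members rose and 0 fell (limma). Without adjustment 30 had p under 0.05 with a higher level and 0 with a lower one, against 10256 and 2026 of 22839 genes. Over all genes 37.3% were called higher and 7.45% lower, and the members' share of 22.5% higher was again below that of all genes. The median difference was 0.38 over members and 0.44 over all genes.

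The members that rose on the spike-in scale were those at the upper end before. Rpl27a had a spike-in difference of 0.82 (adjusted p = 0.0136), Rps26 0.80 (adjusted p = 0.0136), Rps23 0.76 (adjusted p = 0.0125) and Rpl10 0.74 (adjusted p = 0.0121, limma). Rpl13a was called higher as well, at 0.57 (adjusted p = 0.0395, limma), while Rplp0 and Rps18 both had 0.40 and were not called. Rpl36 and Rpl7a, called lower before, had a spike-in difference of 0.00 (95% intervals -0.42 to 0.42 and -0.43 to 0.43). Mutant arrays lay above Wild Type arrays without overlap for 42 of 80 members and below for 0. Over all 22839 genes it was 9915 above (43.4%) and 2082 below (9.12%). The members' share above was therefore higher than that of all genes, unlike their share called higher. The 95% interval lay within a 2-fold change for 65 of 80 members (81.25%), against 42.7% of all genes. The share was 89.6% for mitochondrial ribosomal protein genes and 78.6% for chaperones and late assembly factors.

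The members' median deviation on the spike-in scale was 0.12, 0.61, 0.55 and 0.25 in the Mutant arrays, against 0.08, 0.02 and -0.09 in the Wild Type arrays. The Mutant medians therefore spanned from near the Wild Type range to well above it. The spike-in count changed when single arrays were left out. It was 0 without Wild Type_189, 2 without Wild Type_183 and 8 without Wild Type_181. It was 7 without Mutant_182 or without Mutant_187, and 27 without Mutant_175. Shares over all genes are not given for these fits, so the changes are no result about the members.

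**Figure D3:**
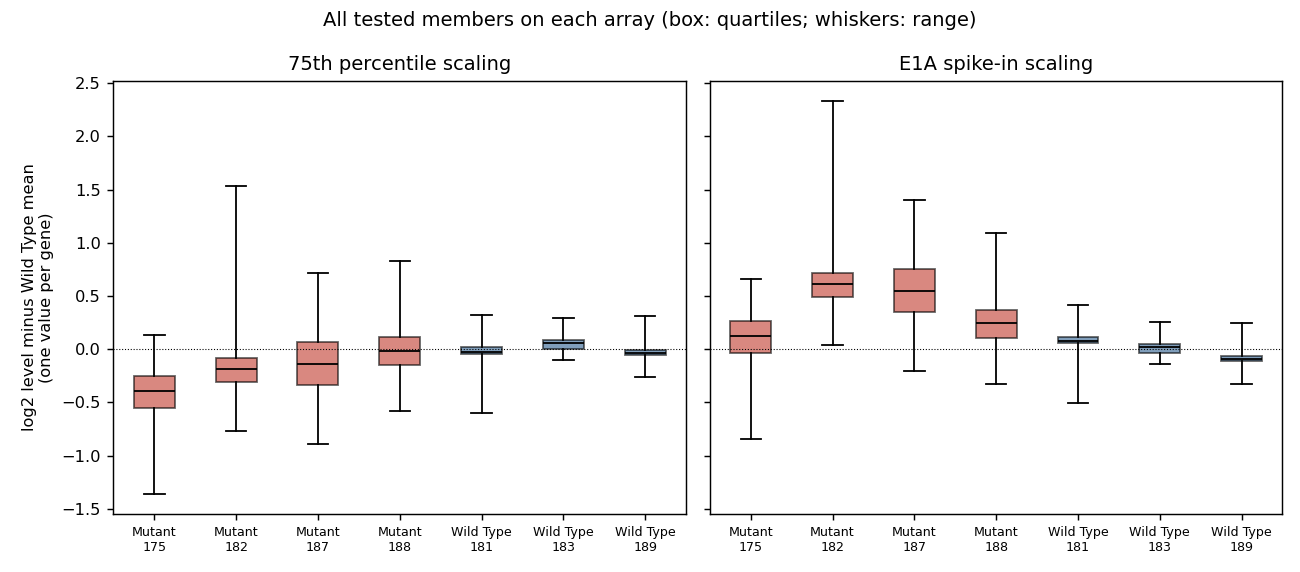
Log2 level of each tested member minus its Wild Type mean, by array, after 75th percentile scaling (left) and E1A spike-in scaling (right); boxes give the quartiles and median over 80 genes and whiskers the full range, with Mutant arrays in red and Wild Type arrays in blue. On the left the Mutant medians run from -0.40 in Mutant_175 to -0.01 in Mutant_188, and on the right from 0.12 to 0.61.

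After quantile normalization, which forces all arrays to one distribution, 3 members were called higher (Rpl10 at 0.55, Rpl41 at 0.53 and Rps26 at 0.45) and 0 lower, against 18.6% and 22.8% of all genes (limma). Without adjustment 10 members had p under 0.05 with a higher level and 3 with a lower one, against 5154 and 6344 of 22839 genes. The quantile step moved the members by between 0.01 and 0.48, unequally between genes, to a median difference of 0.11. To set the members against each other, each array was scaled to the median of the members, an alternative added after the data were seen. Then 6 genes fell, Rpl22l1, Rpl32, Rps13, Rpl36 and Rpl7a among them, and 1 rose, Rps26 at 0.39 (adjusted p = 0.0427), against 15.6% lower and 19.1% higher over all genes (limma). These differences are relative to the other ribosomal protein genes. This scaling centres the members on their own median, so their counts cannot be weighed against the shares over all genes.

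The counts of calls after 75th percentile scaling also changed with single arrays. The number of members called lower was 4 without Wild Type_183, 6 without Wild Type_181 and 7 without Wild Type_189, and 11 to 16 without a Mutant array. Shares over all genes are not given for these fits either, so the changes are no result about the members. Rpl32, Rpl36, Rpl7a and Rps27 were called lower in all 7 fits that left out an array, and Rpl22l1 in 5 of 7. Rpl34 and Rpl28 were called in 1 of 7 and Rpl37a in 0.

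Many members had several probes, so differences could be compared within a gene. Some of these probes overlap almost fully. The 2 brightest start at 4746095 and 4746096 for Rpl28 and at 72760138 and 72760137 for Rpl37a, both called lower. Agreement between such probes is no independent check. For 57 members at least 2 probes were well above background on all 7 arrays. The brightest and the next probe differed by a median of 0.0889 in log2 difference, by under 0.2 for 49 members, and had the same sign for 49. Both Rps27 probes fell, by 0.49 and 0.45. The file places both on chromosome 9 and not with the gene on chromosome 3, so their agreement leaves the source uncertain. The 3 Rps19 probes each gave -0.17. Of the 15 members called lower, 10 had several such probes, and all of these probes had a negative difference. Not all were called, as the second probes of Rpl7a, at -0.23 (adjusted p = 0.17), and Rpl24, at -0.28 (adjusted p = 0.0876, limma), were not. The second Rps13 probe was far dimmer than the first, with a mean log2 relative signal of -3.98 against 6.62. Of the 172 member probes kept, 25 were called lower and 2 higher (limma). The share over all kept probes is not given, so these counts are no result about the members. The 2 called higher were the third probe of Rpl10a, at 0.54 (adjusted p = 0.00521), and the third of Rpl7, at 0.93 (adjusted p = 0.0454, limma). Both were dimmer than the brightest probe of their gene. Their mean log2 relative signal was -1.34 against 7.27 for Rpl10a, and 2.54 against 6.98 for Rpl7. The largest gap was 0.781 for Rps12, whose second probe gave 0.84 and was not called. That probe was far dimmer than the first, with a mean log2 relative signal of -3.18 against 7.53. The second Rpl36 probe, at -0.74, is placed on chromosome X and not with the gene on chromosome 17.

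**Figure D4:**
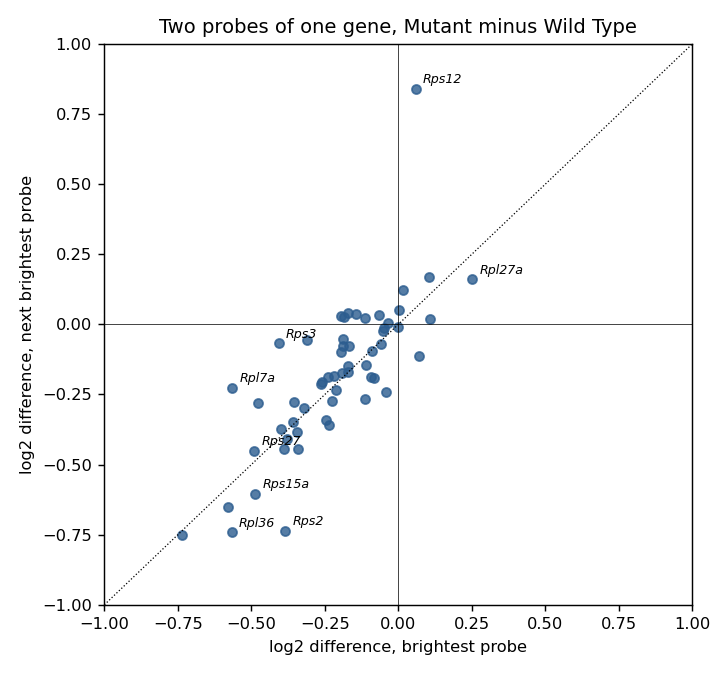
Log2 difference, Mutant minus Wild Type, of the brightest probe (horizontal axis) and the next brightest probe (vertical axis) of 57 members; each point is a gene and the dotted line marks equal values. Most points lie along the line, with 49 of 57 on the same side of 0, and Rps12 is farthest from it. The next brightest Rps12 probe was far dimmer than the brightest.

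Ribosomal protein genes have many processed pseudogenes, copies without introns that can share probe sequence. For 16 of 80 members the probe spans over 100 bases of the genome and so crosses a junction of the spliced message. Some of these are shown, a pair that fell and a reference gene, because they do not match an unspliced exon alone. They are written as the file gives them on the strand of the gene.

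Rps13, chr7:123475080-123475934, minus strand: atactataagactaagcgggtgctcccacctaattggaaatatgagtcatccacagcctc
Rps21, chr2:179992705-179992936, plus strand: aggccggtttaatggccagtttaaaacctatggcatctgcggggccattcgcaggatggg
Rpl13a, chr7:52381388-52381529, minus strand: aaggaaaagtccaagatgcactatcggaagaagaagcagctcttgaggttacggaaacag

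The coordinates are those of build mm9 in the file. The differences of these junction probes were those given above, -0.58 for Rps13, -0.46 for Rps21 and 0.01 for Rpl13a. A processed pseudogene is a copy of the spliced message and can still share such a sequence.

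Beside the members, Fau, which carries the small subunit protein S30, gave 0.00 (adjusted p = 0.973), and Gnb2l1, the scaffold also named Rack1, gave -0.33 (adjusted p = 0.0527, limma).

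Of 21 translation factors and related genes known for a pyrimidine leader, 4 rose (19.0%) and 6 fell (28.6%), with a median of -0.06, shares near the 16.4% higher and 25.8% lower of all genes. With spike-in scaling, where 37.3% of all genes rose and 7.45% fell, 10 of the 21 rose and 0 fell, and after quantile normalization 4 rose and 0 fell. Eef1a1, the elongation factor that brings aminoacyl-tRNA, ranged over 89.8 to 128 in Mutant hearts, against 58.7 to 64.4 in Wild Type hearts, without overlap. It rose by 0.80 (SE 0.14, adjusted p = 0.00402, limma), outside the range of the members. Eif2s3x, a subunit of initiation factor eIF2, rose by 0.68 (adjusted p = 0.00253), and the eIF3 subunits Eif3k and Eif3g fell by 0.46 (adjusted p = 0.00776) and 0.47 (adjusted p = 0.008, limma).

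Of 18 genes of the mTOR pathway, 5 fell (27.8%) and 1 rose, with a median of -0.15, against 25.8% lower over all genes. With spike-in scaling 1 fell and 2 rose. Tsc2 and Tsc1, which together hold mTOR signalling back, fell by 1.23 (adjusted p = 0.000314) and 0.61 (adjusted p = 0.0134, limma). Eif4ebp2, a repressor of cap-dependent translation, fell by 0.86 (adjusted p = 0.00122), and Sesn1, an inhibitor of mTOR under stress, rose by 0.55 (adjusted p = 0.0353, limma). On the spike-in scale Tsc2 was called lower, at -0.67 (adjusted p = 0.0415), while Eif4ebp2, at -0.29 (adjusted p = 0.294), and Tsc1, at -0.04 (adjusted p = 0.879, limma), were not called.

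Of 14 tested chaperones and late assembly factors, 4 fell (28.6%) and 0 rose, with a median of -0.24, against 25.8% lower over all genes (limma). After spike-in scaling 0 fell and 3 rose, so none of these lower calls was kept there. Without adjustment, 6 had p under 0.05 with a lower level and 1 with a higher one, against 7123 and 4570 of 22839 genes. Tsr2, the chaperone of Rps26, had 0.354, 0.463, 0.441 and 0.505 in Mutant hearts, against 1.03, 0.854 and 0.819 in Wild Type hearts, a difference of -1.04 (adjusted p = 0.00186, limma). Rps26 itself was at the high end of the members. Pdcd2l and Pdcd2, of which Pdcd2 is a chaperone of Rps2, fell by 0.65 (adjusted p = 0.00506) and 0.44 (adjusted p = 0.0245), and Heatr3, which carries Rpl5, fell by 0.55 (adjusted p = 0.00824, limma).

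Of 36 nucleolar ribosome biogenesis genes, 5 rose (13.9%) and 3 fell (8.33%), with a median of -0.01, against 16.4% higher and 25.8% lower over all genes. With spike-in scaling 14 rose and 1 fell, and after quantile normalization 8 rose and 3 fell. Polr1a, the largest subunit of RNA polymerase I, fell by 1.74 (adjusted p = 0.000282), and Nop10, of the pseudouridylation particle, fell by 0.77 (adjusted p = 0.00218, limma). Ddx21, a nucleolar RNA helicase, and Wdr43 rose by 1.02 (adjusted p = 0.00166) and 0.66 (adjusted p = 0.00801, limma).

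The ribosome of the mitochondrion has its own set of nuclear-encoded proteins. Of 77 mitochondrial ribosomal protein genes tested, 60 fell and 0 rose, with a median of -0.66 (limma). Without adjustment, 65 had p under 0.05 with a lower level and 0 with a higher one, against 7123 and 4570 of 22839 genes. Mrps28 had a difference of -1.66 (adjusted p = 0.000142) and Mrpl14 of -1.44 (adjusted p = 0.000241, limma). On the spike-in scale 9 fell and 3 rose, with a median of -0.10, while the cytosolic set had 18 higher and 0 lower. Spike-in scaling shifts both sets alike and cannot change the distance between them. After quantile normalization, which can, 46 mitochondrial genes fell and 1 rose, and the medians were 0.11 for the cytosolic and -0.47 for the mitochondrial set. The distance was not tested.

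**Figure D5:**
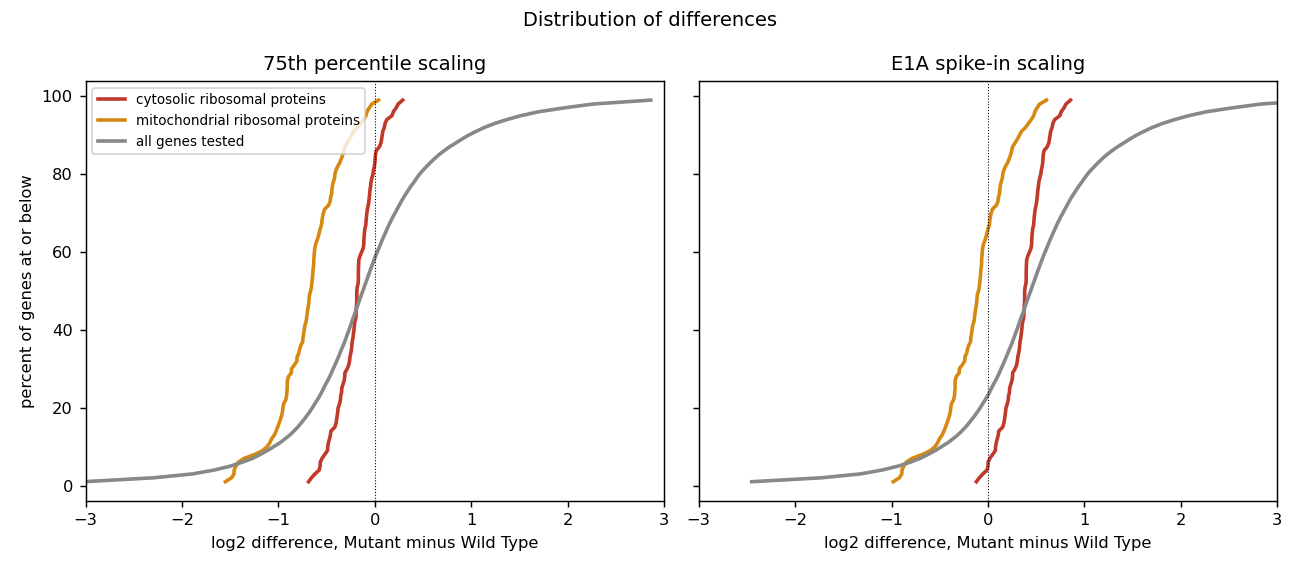
Percent of genes at or below each log2 difference, Mutant minus Wild Type, for cytosolic ribosomal protein genes (red, 80 genes), mitochondrial ribosomal protein genes (orange, 77 genes) and all 22839 genes tested (grey), under 75th percentile scaling (left) and E1A spike-in scaling (right). The red curve is steeper than the grey one in both panels, with medians of -0.19 and 0.38, and the orange curve lies to its left, with medians of -0.66 and -0.10.

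Markers of several cell types differed between the groups. Over all genes 25.8% fell and 16.4% rose, with 7.45% and 37.3% on the spike-in scale and 22.8% and 18.6% after quantile normalization. All 11 cardiomyocyte markers were above background and tested, of which 9 fell and 0 rose (5 and 0 both on the spike-in scale and after quantile normalization). Their median difference was -0.79, with quartiles of -1.75 and -0.65. Their summed relative signal was 2623 to 3474 in Mutant hearts, against 5648 to 6148 in Wild Type hearts. All 8 fibroblast markers rose on each of these scales, with a summed relative signal of 597 to 832 in Mutant hearts, against 299 to 330 in Wild Type hearts. Of 8 macrophage markers 5 rose (7 on the spike-in scale and 6 after quantile normalization), with sums of 120.2 to 227 in Mutant hearts, against 108 to 118 in Wild Type hearts. Of 6 smooth muscle and pericyte markers 2 rose and 0 fell (4 and 0 on the spike-in scale). Their sums were 428 to 521 in Mutant hearts, against 82.9 to 96.4 in Wild Type hearts. These sums do not stand for each marker, as the differences ran from -0.64 to 3.44 with a median of 0.47. Among 6 endothelial markers 1 rose and 1 fell, and among 4 tested lymphocyte markers 2 rose, with sums of 2.78 to 5.98 in Mutant hearts, against 1.67 to 1.86 in Wild Type hearts. Of 4 tested erythroid markers 0 were called. Of the markers listed, 1 for macrophages, 2 for lymphocytes and 1 for erythroid cells were not tested. They were either too dim or had no probe under the listed name. The part of these markers' cell types in the levels of the ribosomal protein genes was not tested.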

How the data were processed

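Intensity was read from the scans by Agilent Feature Extraction 10.7.3.1 with probe positions on build mm9, per the file headers. The values used are its deposited processed signal, a background-subtracted intensity on a linear scale, with flags for spots well above background or outlying. The authors' deposited table of processed intensity was used only as an alternative, and 99.6% of its values lay within 0.01 log2 of the scanner values. How samples were labelled is given in the labels' protocols.

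Outlying spots (82 to 146 per array) and control spots were left out, spots of a probe were averaged, and log2 signal was tested after subtracting the 75th percentile over probes of each array. Of 56605 probes, the 34481 flagged well above background on 3 or more arrays were kept. Each gene name of the file was represented by its brightest kept probe. limma 3.58.1 in R 4.3.3 (lmFit and eBayes, all 7 arrays, no covariates) was used with Benjamini-Hochberg adjustment over 22839 genes. The fit was also run on simulated data without scaling error between arrays, which says nothing about the choice of scaling. E1A scaling used the 7 of 10 E1A spike-in probes that were well above background on all arrays. Pair ratios were compared by exact permutation over 35 splits. The number of arrays limits the precision.

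Named members were the 8 with the smallest p and the 8 with the largest difference in each direction, the measured second copies, and a short list of well-known members. From other lists up to 4 with the smallest p were named. Certain results under this rule are left out here. The members and lists were chosen with earlier results of these data known. Alternatives were other scalings, background correction with offset 50, filters on dim probes, the mean over probes, other limma priors and weights, and leaving out each array. All arrays lie on 1 slide, so no batch was fitted. Sequences are from RefSeq (GRCm38.p6) and from the file.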

Additional observations from a re-analysis of the deposited data

Results flagged for a closer look

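Rpl7l1, a second copy beside Rpl7, had a single array apart from the rest of its group. Its relative signal was 1.15, 1.19, 1.19 and 1.48 in Mutant_175, Mutant_182, Mutant_187 and Mutant_188, against 1.23, 1.17 and 1.14 in the Wild Type arrays. The gap between Mutant_188 and the nearest Mutant array was 0.844 of the group's range on the log2 scale, above Dixon's 95% critical value for 4 samples. It was the only 1 of 34 results checked, and chance flags about 1 in 20 groups. Rpl7l1 was not called.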

How the results depend on the processing

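Counts are of the 80 tested members. Where no share over all genes is given for a setting, its counts do not tell the members from other genes. After 75th percentile scaling 15 were called lower. The count was 0 after quantile normalization, 7 with a percentile taken over probes bright on every array, 2 with normexp and quantile normalization, 0 with spike-in scaling and 6 with scaling to the members' median, and 4 to 16 when an array was left out. The count of members called higher, 0 before, was 3, 1, 5, 18 and 1 in that order of settings, 1 with array weights, and 0 to 2 when an array was left out. In other settings more members were called lower, 21 with a trended robust limma prior, 18 with array weights and 16 with median scaling. It was 16 with a dim-probe filter over all arrays, 14 with the mean over probes and 11 with no such filter. The median difference of -0.19 moved to 0.11 with quantile normalization, 0.11 with normexp and quantile normalization together, 0.38 with spike-in scaling and -0.07 with the percentile over bright probes. On the spike-in scale 18 members were called higher, and 0 to 27 when an array was left out. With spike-in scaling 10 of the 15 members called lower turned positive, and 5 of the 66 negative members stayed negative. Among those named by rule, the turned ones were Rpl24 (0.088), Rpl34 (0.035), Rpl38 (0.11), Rpl7a (0.0016), Rps21 (0.11) and Rps27 (0.075). These follow from the 0.57 that this scaling adds to every member. No paired analysis was possible because the groups share no replicate numbers. Signals near background limit Rpl39l, and 7 arrays limit every interval.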
